A study of Saccharomyces cerevisiae with 12 samples.

Results

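The genes described here are subunits of the yeast 26S proteasome, its maturation factor UMP1, the bound proteins ECM29 and BLM10, and the transcription factor gene RPN4. They were chosen by name, 36 genes in all, and each of the 36 was read by 1 probe set among the 5449 genes that the array table could name. They comprise 14 genes of the core particle, 10 of the base, 8 of the lid, the 3 genes UMP1, ECM29 and BLM10, and RPN4. The measurements come from Saccharomyces cerevisiae BY4741, a haploid laboratory strain, grown exponentially in minimal medium and hybridised to 12 Affymetrix Yeast Genome 2.0 arrays. Alachlor, a herbicide of the chloroacetanilide class, was present for 2 h at 110 mg/L, set against untreated LOEC controls, or at 200 mg/L, set against untreated IC20 controls. The submitters name the lower dose the LOEC and the higher one the IC20. The 2 doses were separate experiments, each with its own controls, and each of the 4 groups held 3 biological replicates.

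The 26S proteasome is the protease that degrades proteins marked with ubiquitin. Its core particle is a barrel of stacked rings, with alpha subunits at the gates and beta subunits, some of them proteolytic, inside. The regulatory particle caps the barrel, with a base of ATPases that unfold the substrate and a lid that removes ubiquitin. Rpn4 is the transcriptional activator of these genes in yeast. It binds a shared promoter element, is itself a very short-lived substrate of the proteasome, and its gene is known as a target of the stress factors Pdr1, Pdr3, Yap1 and Hsf1. The comparisons below set the transcripts of core, base and lid beside that of RPN4 at each dose.

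The array medians over named genes lay between 1584.9 and 1644.8 intensity units. Within groups the arrays correlated across genes at r = 0.993 to 0.998. The median SD of a gene on the log2 scale was 0.0566 at 110 mg/L and 0.0559 in the LOEC controls, against 0.0947 at 200 mg/L and 0.0823 in the IC20 controls. In the IC20 experiment, the deviation of an array from its group mean followed gene length, with Spearman's rho across genes between -0.488 and 0.570, whereas it lay between -0.0777 and 0.152 in the LOEC experiment. LEU2, URA3 and MET17, which BY4741 lacks, read at most 228.8, and the lowest reading of any of the 36 proteasome-related genes was 1040. HIS3, of which BY4741 carries a partial deletion, read 6721 to 9552; where its probes lie was not tested, so it checks nothing here. Changes are differences of mean log2 intensity, tested gene by gene with limma over 5449 genes, and a gene passed at a Benjamini-Hochberg adjusted p under 0.05.

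RPN4 rose at both doses, while 0 of the 32 structural subunits rose at either. RPN4 (YDL020C) read 3394, 3390 and 3294 intensity units on the 110 mg/L arrays, against 2128, 2169 and 2230 in the LOEC controls. At 200 mg/L it read 4035, 4706 and 4936, against 2358, 1812 and 2402 in the IC20 controls. All treated arrays lay above all controls of their experiment, by a wide margin at both doses. The mean intensity was 3360 ± 56.7 at 110 mg/L and 2176 ± 51.4 in the LOEC controls (SD, n = 3 each), a 1.54-fold rise with a log2 change of 0.63 (SE 0.10, 95% confidence interval 0.40 to 0.85, adjusted p = 0.00467). It was 4559 ± 468 at 200 mg/L and 2191 ± 328 in the IC20 controls (SD, n = 3 each), a 2.09-fold rise with a log2 change of 1.06 (SE 0.10, interval 0.84 to 1.29, adjusted p = 3.56e-05). Among all genes tested, 4.26% passed at 110 mg/L, 3.05% as higher and 1.21% as lower, and 17.8% passed at 200 mg/L, 10.0% as higher and 7.80% as lower. These splits depended on scaling: 166 genes passed as higher and 66 as lower at 110 mg/L, whereas quantile normalization gave 149 and 94 and centring on medians gave 126 and 94. The numbers at the higher dose were 546 and 425, whereas quantile normalization gave 490 and 497 and centring on medians gave 462 and 547. RPN4 had the rank 53 among the largest log2 rises at 110 mg/L and 42 at 200 mg/L. In RNA of whole cultures, more transcript in every cell and more cells with the transcript cannot be told apart.

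**Figure D1:**
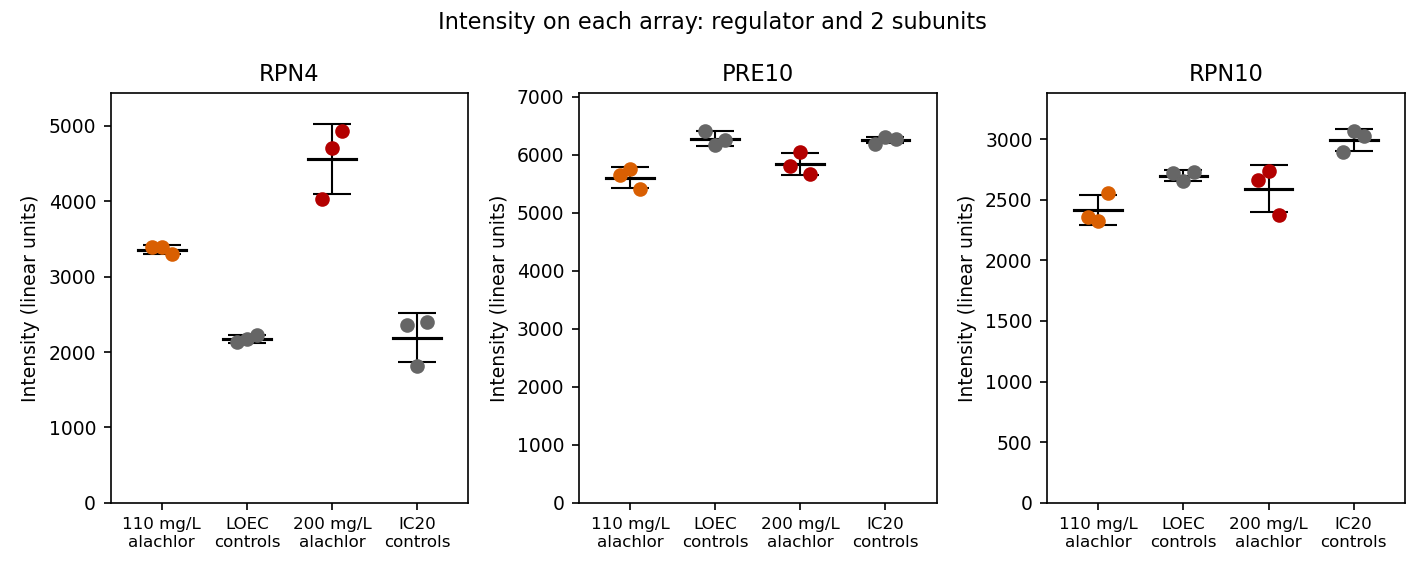
Intensity (linear units) of RPN4, the core subunit gene PRE10 and the ubiquitin receptor gene RPN10 on each of the 12 arrays. Points are arrays, horizontal lines are group means and bars are SDs (n = 3). RPN4 reads 3294 to 4936 on treated arrays and 1812 to 2402 on controls, while PRE10 and RPN10 lie slightly lower on treated arrays than on the controls of their own experiment.

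The spread of RPN4 was unequal between the experiments, whereas the limma fit pooled the variance of a gene over both. The SE of 0.10 was therefore the same at both doses and is not the spread of either experiment. With only the 6 arrays of the experiment in the fit, the adjusted p by limma was 2.10e-04 at 110 mg/L and 0.00440 at 200 mg/L. In the main fit these were 0.00467 and 3.56e-05. The second IC20 control array read 1812, below the other two, and the first 200 mg/L array read 4035, the lowest of its group. The deviations of both arrays ran against gene length (rho -0.464 and -0.488). Without that control array the log2 change of RPN4 at 200 mg/L was 0.93 (adjusted p = 2.28e-05), and without the first 200 mg/L array it was 1.15 (adjusted p = 5.49e-05). With the trend of each array with gene length removed, the changes were 0.62 at 110 mg/L and 1.05 at 200 mg/L. RPN4 passed at both doses in each of the 22 alternative fits run, with adjusted p from 1.58e-05 to 0.0374 at 110 mg/L and from 1.60e-06 to 0.00440 at 200 mg/L.

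The changes of the core, base and lid genes at 110 mg/L were small and of 1 sign. All 32 subunits had a log2 change below 0, from -0.18 to -0.0092, where 47.5% of all genes lay below 0. The median over the 32 was -0.072, against 0.0052 over all genes tested. In 16 of the 32, all 3 treated arrays lay below all 3 LOEC controls, a separation seen in 12.2% of all genes, and in 0 they lay above, where 15.4% of all genes did. By the limma test, 1 of the 32 fell and 0 rose, where 1.21% of all genes passed as lower and 3.05% as higher. An unadjusted p under 0.05 was found for 7 of the 32 and for 16.3% of all genes. The upper ends of the 95% confidence intervals reached at most 0.097, a 1.07-fold rise, so that the highest of them lay below the lower end for RPN4.

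At 200 mg/L the subunits were more mixed. Log2 changes ran from -0.21 to 0.10 with a median of -0.061, against 0.0002 over all genes, and 22 of the 32 lay below 0 where 50.0% of all genes did. Of the 32, 2 fell and 0 rose by the limma test, where 7.80% of all genes passed as lower and 10.0% as higher. An unadjusted p under 0.05 was found for 8 of the 32 and for 31.5% of all genes. All 3 treated arrays lay below all 3 IC20 controls for 8 of the 32 and above them for 2, against 14.5% and 16.3% of all genes. The highest upper end of a confidence interval was 0.20, a 1.15-fold rise, where the lower end for RPN4 was 0.84. All 32 lay below 0 at 110 mg/L, so the 22 below 0 at 200 mg/L were by necessity those below 0 at both doses. A count over both doses therefore adds nothing to the one at 200 mg/L. The members were chosen with earlier results of these data known, so these counts describe them and test nothing about them as a group.

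**Figure D2:**
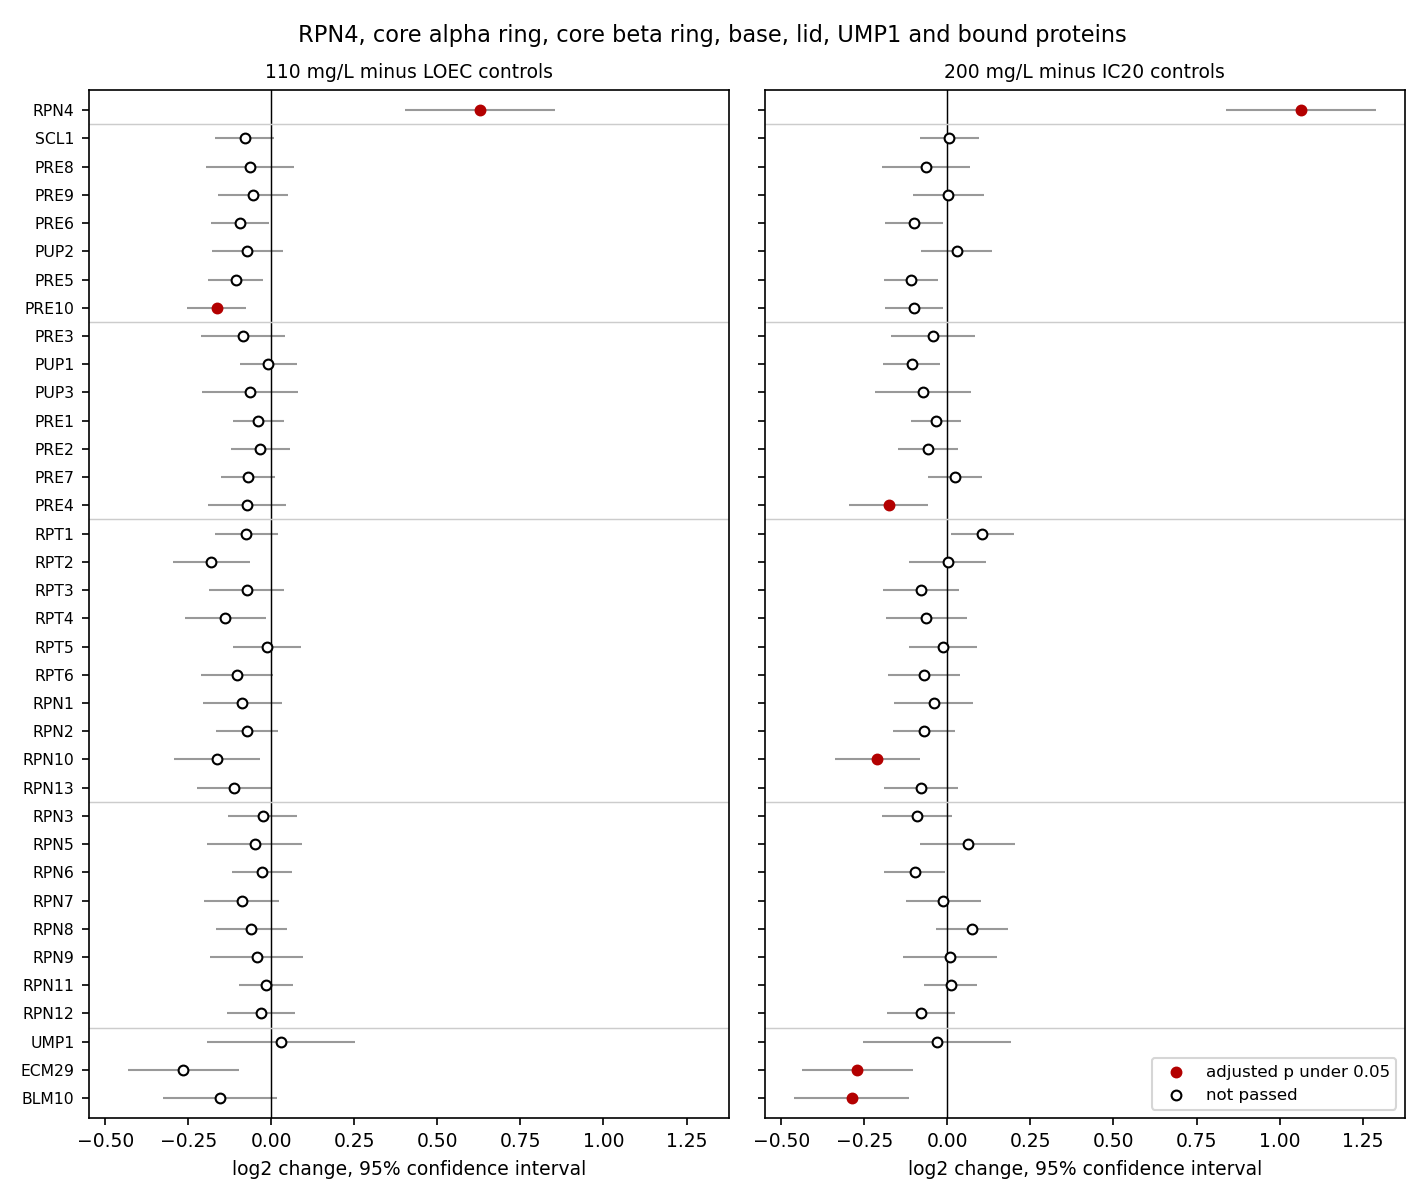
Log2 change of each of the 36 genes at 110 mg/L against LOEC controls (left) and at 200 mg/L against IC20 controls (right), with 95% confidence intervals from the limma fit. Rows run from RPN4 through the core alpha ring, core beta ring, base and lid to UMP1, ECM29 and BLM10. Filled points passed at adjusted p under 0.05: RPN4 stands at 0.63 and 1.06, and the core, base and lid subunits shown lie between -0.21 and 0.10.

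The 14 genes of the core particle were all below 0 at 110 mg/L, and 10 of them at 200 mg/L. They had a median log2 change of -0.071 at 110 mg/L and -0.061 at 200 mg/L. For the 7 alpha ring genes the medians were -0.080 and -0.064, and for the 7 beta ring genes -0.0645 and -0.0585. By limma 1 core gene fell at each dose and 0 rose. Over all genes, 1.21% passed as lower at 110 mg/L and 7.80% at 200 mg/L, and 3.05% and 10.0% passed as higher. The core gene with the largest change at 110 mg/L was PRE10 (YOR362C), an alpha ring subunit. PRE10 read 5651, 5757 and 5409 at 110 mg/L, against 6418, 6169 and 6258 in the LOEC controls, and 5803, 6044 and 5674 at 200 mg/L, against 6196, 6307 and 6273 in the IC20 controls. The groups did not overlap in either experiment. The log2 change was -0.16 at 110 mg/L (SE 0.040, adjusted p = 0.0444), which passed, and -0.10 at 200 mg/L (SE 0.040, adjusted p = 0.110), which did not. The call at 110 mg/L stood on the edge of the threshold. It was lost without any 1 of the LOEC controls, the 110 mg/L arrays, the IC20 controls or the first 200 mg/L array (adjusted p = 0.0540 to 0.169), and it held without the second or the third 200 mg/L array. With only the 6 arrays of the LOEC experiment in the fit it was lost as well (adjusted p = 0.0618).

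PRE5 and PRE6, which also encode alpha ring subunits, had the next largest core changes at 110 mg/L. PRE5 read 4561, 4488 and 4389 at 110 mg/L, against 4849, 4899 and 4729 in the LOEC controls, with a log2 change of -0.11 (adjusted p = 0.157). In the IC20 experiment PRE5 read 4465, 4593 and 4542 at 200 mg/L, against 4822, 5049 and 4801 in the IC20 controls, with a log2 change of -0.11 (adjusted p = 0.0672). Treated and control arrays of PRE5 did not overlap in either experiment, but the test was not passed. After median centring PRE5 passed as lower at 200 mg/L. PRE6 had log2 changes of -0.093 and -0.10 at the lower and higher dose (adjusted p = 0.272 and 0.108), also without overlap. PRE4, a beta ring subunit needed for one of the peptidase activities, read 5899, 5644 and 5503 at 200 mg/L, against 5975, 6651 and 6650 in the IC20 controls. Its log2 change there was -0.18 (SE 0.054, adjusted p = 0.0450), which passed, and -0.073 at 110 mg/L (adjusted p = 0.596), where the groups overlapped. PUP1, which encodes a proteolytic beta subunit, had log2 changes of -0.0092 and -0.11 (adjusted p = 0.963 and 0.0841). PRE2 and PRE3, the other proteolytic beta subunits, had changes of -0.033 and -0.085 at 110 mg/L and -0.0585 and -0.044 at 200 mg/L, and neither passed. Both are named after their values were seen. The remaining core genes, SCL1, PRE8, PRE9, PUP2, PRE1, PRE7 and PUP3, had log2 changes from -0.080 to -0.040 at 110 mg/L and from -0.073 to 0.028 at 200 mg/L, and none of them passed.

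The base holds the 6 ATPases RPT1 to RPT6, the scaffold subunits RPN1 and RPN2 and the ubiquitin receptors RPN10 and RPN13. Its 10 genes had a median log2 change of -0.096 at 110 mg/L and -0.067 at 200 mg/L. At the lower dose 0 passed by limma, where 4.26% of all genes did, and 4 had an unadjusted p under 0.05, where 16.3% did. At the higher dose 1 fell, where 7.80% of all genes passed as lower. The one that fell was RPN10 (YHR200W). RPN10 read 2359, 2327 and 2554 at 110 mg/L, against 2718, 2651 and 2731 in the LOEC controls, and 2665, 2740 and 2374 at 200 mg/L, against 2894, 3070 and 3024 in the IC20 controls. Treated arrays lay below the controls of their own experiment without overlap at both doses. The log2 change was -0.21 at 200 mg/L (SE 0.058, adjusted p = 0.0304) and -0.16 at 110 mg/L (SE 0.058, adjusted p = 0.175). The IC20 controls of RPN10 were higher than the LOEC controls by a log2 difference of 0.15 (adjusted p = 0.261).

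Among the ATPase genes, RPT2 had the largest change at 110 mg/L and RPT1 at 200 mg/L, and neither passed. RPT2 read 2726, 2868 and 3042 at 110 mg/L, against 3390, 3323 and 3077 in the LOEC controls, a log2 change of -0.18 (SE 0.053, adjusted p = 0.0924), and its change at 200 mg/L was 0.0011 (adjusted p = 0.993). RPT4 had log2 changes of -0.14 and -0.064 (adjusted p = 0.231 and 0.465). RPT1 read 6095, 5970 and 6096 at 200 mg/L, against 5488, 5578 and 5827 in the IC20 controls, all treated arrays above all controls. Its log2 change was 0.10 at 200 mg/L (SE 0.043, adjusted p = 0.120) and -0.076 at 110 mg/L (adjusted p = 0.435). RPT1 and RPT2 had the largest differences between the responses at the 2 doses among the subunits, each 0.18 on the log2 scale, and neither passed (adjusted p = 0.259 and 0.394). RPN13 had log2 changes of -0.11 and -0.079 (adjusted p = 0.304 and 0.320). The remaining base genes, RPN1, RPN2, RPT3, RPT5 and RPT6, had log2 changes from -0.10 to -0.012 at 110 mg/L and from -0.079 to -0.013 at 200 mg/L, and none of them passed.

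The lid had the smallest median changes of the 3 subcomplexes. Its 8 genes include RPN11, the deubiquitinase of the lid. Their median log2 change was -0.037 at 110 mg/L and -0.0020 at 200 mg/L. The latter was 0.0001 with the trend with gene length removed. By limma 0 of the 8 passed at either dose, where 4.26% and 17.8% of all genes passed. An unadjusted p under 0.05 was found for 0 and 1 of them, against 16.3% and 31.5% of all genes. RPN11 read 2620, 2685 and 2717 at 110 mg/L, against 2666, 2711 and 2731 in the LOEC controls, and 2759, 2750 and 2644 at 200 mg/L, against 2649, 2761 and 2687 in the IC20 controls. Its groups overlapped in both experiments, with log2 changes of -0.016 and 0.0098 and confidence intervals of -0.096 to 0.065 and -0.071 to 0.090. RPN11 and RPN9 are named here after their values were seen. RPN7 had a log2 change of -0.089 at 110 mg/L (adjusted p = 0.450), the largest of the lid at that dose, followed by RPN8 at -0.060 and RPN5 at -0.051. The largest lid changes at 200 mg/L were those of RPN6 at -0.099 (adjusted p = 0.126), RPN3 at -0.092 and RPN12 at -0.078, and RPN8 stood at 0.074 with all treated arrays above all controls (adjusted p = 0.336). RPN9 stood at -0.0445 and 0.0084 at the lower and higher dose. SEM1, a further lid gene outside the 36, stood at -0.061 and 0.11 (adjusted p = 0.640 and 0.142). All its 200 mg/L arrays lay above all IC20 controls, with a confidence interval up to 0.22. It is named after its values were seen.

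UMP1 had no detectable change, and ECM29 and BLM10 fell at 200 mg/L. UMP1 encodes the maturation factor that is enclosed in the nascent core and degraded as it matures. It read 2897, 2902 and 3455 at 110 mg/L, against 3034, 3008 and 2994 in the LOEC controls, and 3165, 2737 and 2529 at 200 mg/L, against 2537, 3151 and 2923 in the IC20 controls. The groups overlapped in both experiments (log2 changes 0.029 and -0.031, adjusted p = 0.951 and 0.865), with wide confidence intervals of -0.19 to 0.25 and -0.25 to 0.19.

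ECM29, which encodes a large protein that binds both core and cap, and BLM10, which encodes an alternative cap of the core, had the largest negative changes of the 36 genes at 200 mg/L, and ECM29 also at 110 mg/L. ECM29 (YHL030W) read 1079, 1088 and 1190 at 110 mg/L, against 1366, 1310 and 1354 in the LOEC controls, a log2 change of -0.26 (SE 0.076, adjusted p = 0.0876). It passed as lower at that dose with only the 6 arrays of the LOEC experiment in the fit, and without 200 mg/L array 3. In the IC20 experiment it read 1040, 1050 and 1222 at 200 mg/L, against 1457, 1300 and 1239 in the IC20 controls, a log2 change of -0.27 (SE 0.076, adjusted p = 0.0315). All treated arrays of ECM29 lay below all controls in both experiments, by a small gap at 200 mg/L. BLM10 (YFL007W) read 2304, 2470 and 2402 at 200 mg/L, against 2956, 3119 and 2702 in the IC20 controls, a log2 change of -0.29 (SE 0.078, adjusted p = 0.0280). At 110 mg/L it read 2591, 2513 and 2996, against 3189, 3031 and 2785 in the LOEC controls, and the groups overlapped (log2 change -0.15, adjusted p = 0.370).

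ECM29 and BLM10 are by far the longest of the 36 genes, at 5607 and 6432 bases, where the core genes span 597 to 867 bases, the lid genes 825 to 1572 and the base genes 471 to 2982. Since the IC20 arrays varied with gene length, the changes were also computed with the lowess trend of each array with gene length removed. The shifts below are the differences of these trends between treated and control arrays. Whether those differences are an effect of alachlor or of variation between arrays was not tested. With the trend removed, the changes at 200 mg/L were -0.36 for ECM29 (adjusted p = 7.61e-04) and -0.38 for BLM10 (adjusted p = 0.0140). At 110 mg/L they were -0.29 for ECM29 (adjusted p = 0.00756) and -0.18 for BLM10 (adjusted p = 0.326).

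Of the 36 genes 4 fell at 200 mg/L, where 7.80% of all genes passed as lower. These falls, of PRE4, RPN10, ECM29 and BLM10, rested on few arrays. With only the 6 arrays of the IC20 experiment in the fit, or without IC20 control array 2, RPN4 alone of the 36 genes passed. Without IC20 control array 1 or 200 mg/L array 1, PRE4 and RPN10 were the falls that passed. Without IC20 control array 3, ECM29 and BLM10 passed. Without 200 mg/L array 2 they were RPN10 and BLM10, and without 200 mg/L array 3 ECM29 alone. PRE4 was also lost without any 1 LOEC control or without 110 mg/L array 1.

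**Figure D3:**
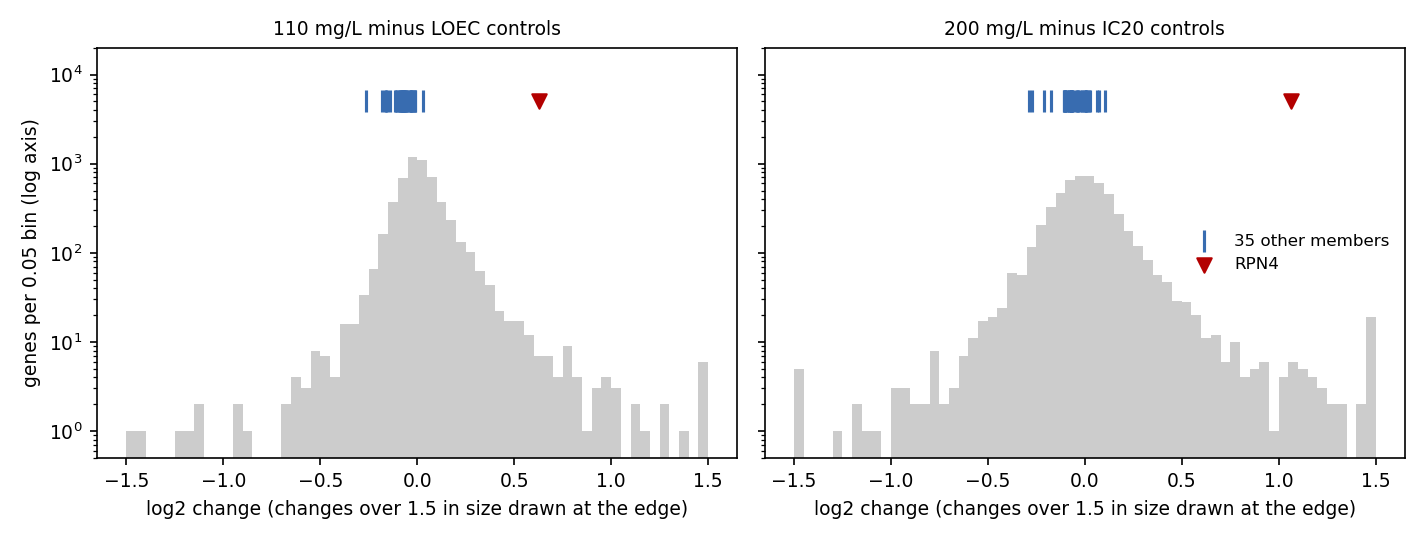
Log2 changes of all 5449 genes tested (grey, number of genes per bin on a log axis) at 110 mg/L against LOEC controls (left) and at 200 mg/L against IC20 controls (right). The red triangle marks RPN4 and the blue ticks the 35 other members, drawn at 1 arbitrary height. RPN4 lies in the right tail at 0.63 and 1.06, and the other members run from -0.26 to 0.029 and from -0.29 to 0.10.

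On each treated array RPN4 stood far above its controls while the averages of core, base and lid stood slightly below 0. Relative to the mean of its own controls, RPN4 stood at 0.64, 0.64 and 0.60 on the 110 mg/L arrays and at 0.89, 1.11 and 1.18 on the 200 mg/L arrays (log2 scale). The mean over the 14 core genes was -0.062, -0.062 and -0.094 at 110 mg/L, against -0.010, -0.0084 and 0.018 in the LOEC controls. For the 10 base genes it was -0.099, -0.095 and -0.11 at 110 mg/L, against 0.0012, -0.0037 and 0.0026 in the LOEC controls. All treated arrays thus lay below all controls for core and base at 110 mg/L.

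The lid genes averaged -0.040, -0.026 and -0.063 at 110 mg/L, against -0.016, 0.015 and 0.0010 in the LOEC controls, a narrower separation than that of the base. At 200 mg/L the core mean was -0.040, -0.057 and -0.076, against -0.030, 0.016 and 0.014 in the IC20 controls, and the base mean was -0.070, -0.042 and -0.045, against -0.013, -0.0092 and 0.022. The lid means at 200 mg/L were -0.0091, -0.022 and -0.016, inside the range of the IC20 controls, which stood at -0.043, 0.0022 and 0.041. These are averages over genes chosen with the results known, and no test was made on them.

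**Figure D4:**
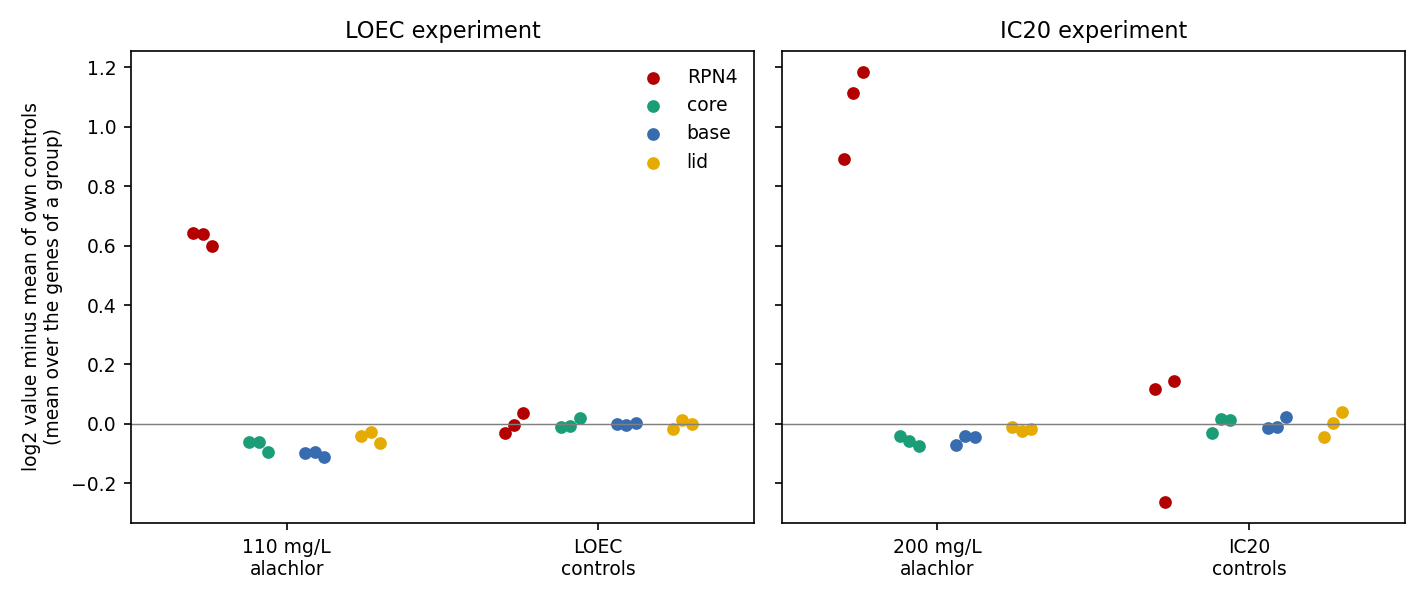
Log2 value on each array minus the mean of the controls of the same experiment, for RPN4 and averaged over the core (14 genes), base (10) and lid (8). Each point is 1 array, treated arrays left and controls right in each panel. RPN4 lies at 0.60 to 1.18 on treated arrays, and the averages of core, base and lid lie between -0.11 and -0.0091 there.

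Since each dose had its own experiment, a difference between the responses cannot be assigned to dose or to experiment. The response of RPN4 was larger at 200 mg/L than at 110 mg/L by 0.44 on the log2 scale (SE 0.14, 95% confidence interval 0.12 to 0.76), a difference that did not pass (adjusted p = 0.257). With IC20 control array 2 left out along with 200 mg/L array 1, it was 0.39 and passed (adjusted p = 0.0174). Each of these arrays held the lowest RPN4 reading of its group. Leaving both out narrowed the spread of RPN4 itself, so that pass cannot settle whether the responses differ. Of the 36 genes, 0 passed in the difference of responses by limma, where 1.25% of all genes passed, 0.991% as higher and 0.257% as lower. An unadjusted p under 0.05 was found for 3 of the 36 and for 10.6% of all genes. The difference lay below 0 for 15 of the 36, against 51.5% of all genes. Between the untreated groups, IC20 minus LOEC controls, 0 of the 36 passed, where 0.789% of all genes passed, 0.587% as higher and 0.202% as lower. Of the 36, 3 had an unadjusted p under 0.05, as did 14.5% of all genes. RPN4 differed between the control groups by -0.0014 (95% confidence interval -0.23 to 0.22).

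Other genes of the ubiquitin-proteasome system and of the regulation of RPN4 were followed in a list of 41, of which all were measured. At 110 mg/L 0 of the 41 passed by limma, where 4.26% of all genes passed, and 5 had an unadjusted p under 0.05, where 16.3% of all genes did. Of the 41, 4 rose and 2 fell at 200 mg/L, where 10.0% and 7.80% of all genes did. The median log2 change of the 41 was 0.0070 at 110 mg/L and -0.017 at 200 mg/L.

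Of the 6 stress transcription factor genes, PDR3 rose and MSN4 fell at 200 mg/L, where 10.0% of all genes rose and 7.80% fell. PDR3, an activator of drug resistance genes that also acts on its own promoter, read 988, 1018 and 1157 at 200 mg/L, against 782, 728 and 763 in the IC20 controls. It read 1027, 903 and 1160 at 110 mg/L, against 842, 909 and 806 in the LOEC controls, where 1 treated array lay below the highest control. The log2 changes were 0.47 at 200 mg/L (SE 0.090, adjusted p = 0.00429) and 0.27 at 110 mg/L (SE 0.090, adjusted p = 0.147). MSN4, one of a pair of general stress activators, read 443, 576 and 569 at 200 mg/L, against 897, 676 and 916 in the IC20 controls (log2 change -0.65, SE 0.13, adjusted p = 0.00565). In the LOEC experiment MSN4 read 585, 552 and 623 at 110 mg/L, against 785, 688 and 781 in the LOEC controls (log2 change -0.36, adjusted p = 0.178), also without overlap. With only the 6 arrays of the LOEC experiment in the fit, MSN4 passed at 110 mg/L as well.

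The other factors did not pass at either dose. PDR1, the partner of PDR3, had log2 changes of 0.030 and 0.14 (adjusted p = 0.882 and 0.124). YAP1, the oxidative stress activator, stood at -0.031 and 0.14, HSF1, the heat shock activator, at 0.14 and -0.0064, and MSN2, the partner of MSN4, at 0.048 and 0.033. The confidence intervals of YAP1 and HSF1 were wide, reaching 0.47 for YAP1 at 200 mg/L and 0.47 for HSF1 at 110 mg/L. Genes of the turnover of Rpn4 protein, and a related ligase, also did not pass. UBR2, the Rpn4 ubiquitin ligase, stood at -0.034 and -0.094, MUB1, the partner of that ligase, at 0.035 and -0.010, the conjugating enzyme RAD6 at -0.056 and -0.064 and UBR1, a ligase related to UBR2, at 0.020 and 0.040.

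Of the 16 genes for ubiquitin, its activation, transfer and shuttling, 2 rose and 0 fell at 200 mg/L. Over all genes, 10.0% rose and 7.80% fell at that dose. UBI4, the stress-induced polyubiquitin gene, read 4713, 4797 and 4938 at 200 mg/L, against 3117, 3264 and 3542 in the IC20 controls, and 3554, 3478 and 3413 at 110 mg/L, against 3070, 3180 and 3333 in the LOEC controls. All treated arrays lay above all controls in both experiments, with a far wider gap at 200 mg/L. UBI4 rose 1.46-fold at 200 mg/L (log2 change 0.54, SE 0.052, adjusted p = 3.53e-05) and had a log2 change of 0.12 at 110 mg/L (adjusted p = 0.260). UBC5, a ubiquitin-conjugating enzyme of stress, read 3042, 3081 and 2750 at 200 mg/L, against 2402, 2626 and 2468 in the IC20 controls, and rose 1.18-fold (log2 change 0.24, SE 0.056, adjusted p = 0.0125). That call was lost with only the 6 arrays of the IC20 experiment in the fit (adjusted p = 0.0793), and in 1 further setting, given with the effects of processing. Its close relative UBC4 had a log2 change of -0.071 (adjusted p = 0.432). The ubiquitin genes fused to ribosomal protein sequences, RPL40A, RPL40B and RPS31, stood at -0.027, -0.080 and -0.032 at 200 mg/L. UBC4 and these fusion genes are named after their values were seen.

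Among the 6 further proteins of the lid or bound to the proteasome, 1 rose and 1 fell at 200 mg/L. The shares over all genes were 10.0% and 7.80%. SPG5, which acts on the proteasome in stationary phase, read 4186, 4238 and 3960 at 200 mg/L, against 3402, 3223 and 3411 in the IC20 controls, and rose 1.23-fold (log2 change 0.30, SE 0.053, adjusted p = 0.00251). At 110 mg/L its log2 change was 0.051 (adjusted p = 0.759) and the groups overlapped. CIC1, a nucleolar protein of ribosome assembly that was also described as binding the proteasome, had a log2 change of -0.16 at 200 mg/L (SE 0.049, adjusted p = 0.0418), a call that was lost without 10 of the 12 arrays left out singly (adjusted p up to 0.138) and held without 110 mg/L array 3 or IC20 control array 2. The 9 assembly chaperones had 0 genes past the test at both doses by limma, where 4.26% and 17.8% of all genes passed. At each dose 1 of the 9 had an unadjusted p under 0.05, where 16.3% and 31.5% of all genes did. Their median log2 change was 0.0032 at 110 mg/L and -0.035 at 200 mg/L, and the lowest value was that of TMA17 at 110 mg/L, -0.18 (adjusted p = 0.194). TMA17, which assists ATPase assembly under stress, is named after its value was seen.

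**Figure D5:**
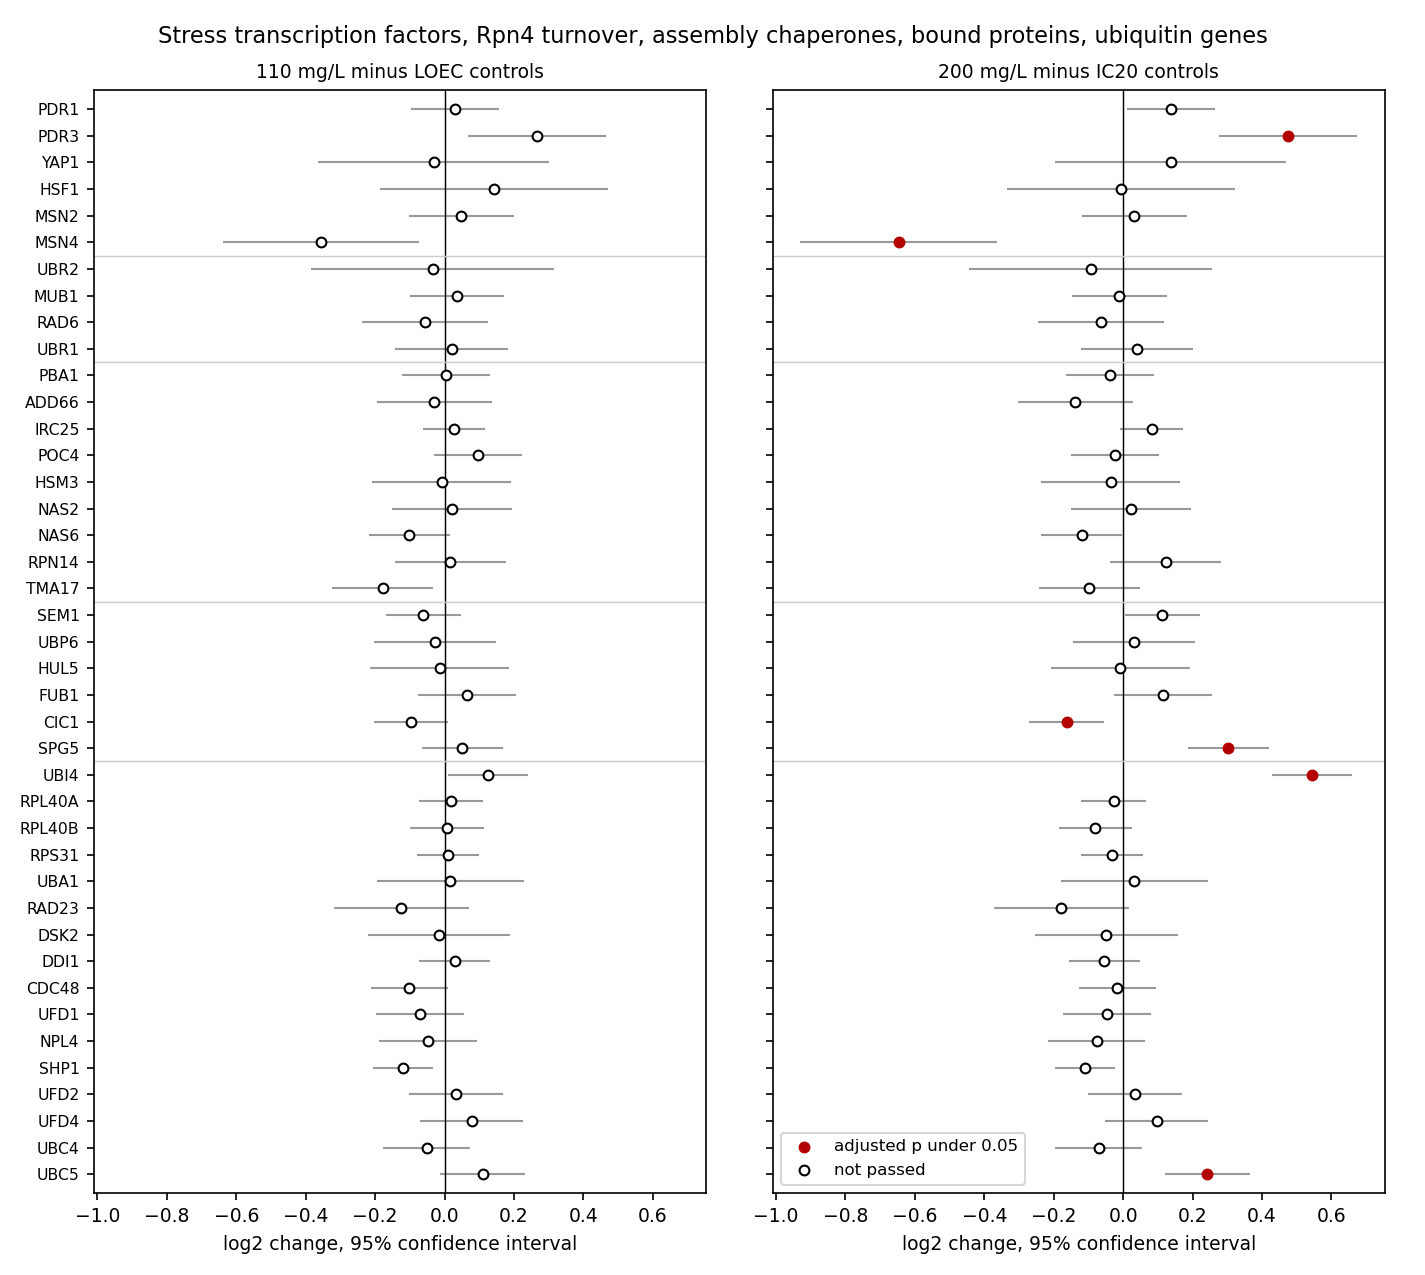
Log2 change of 41 other genes of the ubiquitin-proteasome system and of RPN4 regulation at 110 mg/L against LOEC controls (left) and at 200 mg/L against IC20 controls (right), with 95% confidence intervals from the limma fit. Rows run from stress transcription factors through Rpn4 turnover, assembly chaperones and bound proteins to ubiquitin genes. Filled points passed at adjusted p under 0.05: at 200 mg/L PDR3, SPG5, UBI4 and UBC5 lie right of 0 and MSN4 and CIC1 left of it.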

How the data were processed

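The values deposited by the authors are linear intensities, 1 for each probe set of an array hybridised with 1 sample. The submitters' processing notes name Affymetrix Expression Console; its role, the summary of probes and the normalization are not given in the sources used here. Of 5716 probe sets, 5498 carried 1 gene symbol and 218 none. Gene IDs were used to update 12 symbols from the RefSeq gene table, and for 47 genes with several probe sets the brightest was kept. For 5449 genes, log2 intensities of 12 arrays entered 1 model of 4 group means (limma 3.58.1 under R 4.3.3, 8 residual and 2.73 prior degrees of freedom), with two-sided tests and Benjamini-Hochberg adjustment. The number of arrays limits the precision.

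The members and lists were chosen with earlier results of these data known. Values are given for RPN4, in core, base and lid the 3 largest changes at each dose, UMP1, ECM29, BLM10, every member past the test, up to 3 genes past the test in each further list, and the regulators of RPN4; any other gene is marked in the text. Scripts were tested on simulated data. Alternatives were quantile normalization, median centring, a filter on the 20% dimmest genes, all probe sets, trend and robust moderation, 1 experiment alone, a replicate block, log2 of the value plus 16, removal of each array's lowess trend with gene length, adjusted p under 0.01 and arrays left out. Promoter and protein sequences were not used here.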

Additional observations from a re-analysis of the deposited data

Results flagged for a closer look

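UBI4, the polyubiquitin gene, was the only gene among the 36 members and the 41 further genes whose response differed by the limma test of the difference. Over all genes, 1.25% passed that test, so 1 gene of these lists is near the share of all genes. As each dose had its own experiment, effects of dose and of experiment cannot be told apart. The log2 change of UBI4 was larger at 200 mg/L than at 110 mg/L by 0.42 (SE 0.074, adjusted p = 0.0204). All treated arrays lay above all controls in both experiments. The call was lost without 8 of the 12 arrays left out singly: LOEC control arrays 2 and 3, all 3 of the 110 mg/L arrays, IC20 control arrays 1 and 2 and 200 mg/L array 2 (adjusted p = 0.0515 to 0.0658). It was also lost when 200 mg/L array 1 and IC20 control array 2 were both left out (adjusted p = 0.0648) and in 1 further setting given with the effects of processing. With single arrays left out the difference lay between 0.38 and 0.47.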

How the results depend on the processing

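RPN4 passed at both doses in all alternatives run. Leaving out 1 array at a time gave log2 changes of 0.61 to 0.64 at 110 mg/L, 0.93 to 1.15 at 200 mg/L and 0.31 to 0.52 for the difference of responses, which passed only when IC20 control array 2 was left out along with 200 mg/L array 1 (0.39, 1 gene of 36). Members past the test at 110 mg/L numbered 2 of 36, where 4.26% of all genes passed, and 1 to 3 with single arrays left out. The count was 1 with the replicate block, without those 2 arrays together and at adjusted p under 0.01. With only the 6 arrays of the LOEC experiment the count stayed at 2, with ECM29 and RPN4 in place of PRE10 and RPN4. At 200 mg/L the members past the test numbered 5 of 36, where 17.8% of all genes passed, and 1 to 5 with single arrays left out. That count was 1 with only the experiment's 6 arrays, with the replicate block, without those 2 arrays together and at adjusted p under 0.01. Among the 41 further genes the count at 110 mg/L was 1 in place of 0 (MSN4) with 6 arrays and without those 2 arrays. Over all genes, the replicate block left 97 calls at 110 mg/L, 519 at 200 mg/L and 21 in the difference, against 232, 971 and 68. Fits on the 6 arrays of 1 experiment gave 314 calls at 110 mg/L and 444 at 200 mg/L, a smaller gap between the doses. The main fit pooled the variance of a gene over both experiments, and the IC20 arrays varied more. Its SEs can thus be too large at 110 mg/L and too small at 200 mg/L. The replicate block also lost UBC5 at 200 mg/L (adjusted p = 0.0553) and UBI4 in the difference (adjusted p = 0.132). Between the controls 80 genes passed with the length trend removed and 20 without the dimmest genes, against 43. With single arrays left out, the calls numbered 113 to 266 at 110 mg/L, 713 to 973 at 200 mg/L, 39 to 68 in the difference and 5 to 58 between the controls. Whether arrays of equal replicate number were grown together is not given in the labels. Deviations of same-numbered arrays correlated at -0.61 to 0.14, and 0 of 6 treated arrays correlated best with their own number. In the IC20 experiment these deviations followed gene length, so the correlations cannot settle a pairing. Median centring moved the medians at 110 mg/L to -0.099 for core, -0.12 for base and -0.065 for lid, and at 200 mg/L to -0.086 for core and -0.091 for base. The base median at 110 mg/L was -0.10 with quantile normalization and -0.10 with the length trend removed, and at 200 mg/L -0.037 without the 2 arrays together. With single arrays left out, the core median ran from -0.079 to -0.047 at 110 mg/L, the base median from -0.11 to -0.084 at 110 mg/L and -0.070 to -0.036 at 200 mg/L, and the lid median from -0.042 to 0.0084 at 200 mg/L. The causes were not tested. Changes of the size of the subunits lie near the SE of a change, which had a median of 0.048 over the 32 subunits.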
